A study of Mus musculus with 8 samples.

Results

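The 38 genes described here encode proteins that copy nuclear DNA or act directly beside that process. They include the replicative helicase and its loading factors, DNA polymerases with their sliding clamp, enzymes that make deoxynucleotides, and factors for chromatin, repair and cell cycle entry. The genes were taken by symbol from the raw count table. All 38 were found among its 15288 genes, and all 38 passed the filter on low counts, which left 14024 genes tested. Their counts lay between 482 and 15077 in any library.

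The cells were IMCD cells, a mouse line from the inner medullary collecting duct of the kidney, so a single line stands as the model. Cells of both groups were grown to confluence in high-glucose, pyruvate-containing DMEM with 10% FBS, penicillin and streptomycin, and were then kept for 12 h in DMEM free of FBS. The NaCl group received 100 mmol NaCl during those 12 h, an amount the labels give without a volume, and the control group received none. The 8 bulk RNA libraries carry the numbers 1 to 4 (4 control libraries) and 5 to 8 (4 NaCl libraries), and these numbers serve as replicate numbers below. The labels say neither what the number stands for nor that libraries came from separate cultures, so p-values measure the spread between these libraries, which may be technical.

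A replication origin is first licensed: the origin recognition complex, Cdc6 and Cdt1 load rings of Mcm2 to Mcm7 onto DNA. Cdc45 and the GINS complex then join the ring to form the active helicase, and polymerases held by the clamp Pcna copy the separated strands. Most of these genes are known to be transcribed as cells pass into S phase, and serum withdrawal or contact between cells lowers the share of cells that do so.

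The library totals ran from 35286796 counts (NaCl replicate 5) to 47565623 counts (control replicate 1). The share of counts from the 10 most abundant genes in each library was higher at each later number of a group, going from 4.75% to 5.26% over the control libraries and from 4.86% to 5.41% over the NaCl libraries. Mitochondrially encoded genes held 1.32% to 1.46% of control counts and 1.39% to 1.65% of NaCl counts, with the lowest share in the last library of each group. The part of depth and of these shares in the results below was not tested. Of the collecting duct markers, Hoxb7 was at 68.2 to 75.5 CPM in control (counts per 1000000 counts of the library). It was at 56.2 to 64.4 CPM in NaCl. Tfcp2l1 (121 to 149 and 96.8 to 103 CPM) and Gata3 (7.50 to 9.33 and 5.73 to 6.42 CPM) were also lower in every NaCl library. The groups overlapped for Krt18 (188 to 243 and 194 to 231 CPM), Krt8, Epcam, Scnn1a, Aqp3 and Cdh1. Aqp2 and Avpr2 were higher in every NaCl library but did not exceed 1.16 CPM. The water channel Aqp2 did not exceed 15 counts and Cdh1 did not exceed 30 counts in any library, while the stromal gene Col1a1 reached 2293 to 2660 CPM in control and 1982 to 2303 CPM in NaCl. The other 2 stromal markers differed from it in pattern: Pdgfrb was at 34.2 to 43.3 CPM in control and 57.5 to 65.8 CPM in NaCl, and Dcn at 14.3 to 19.3 and 14.0 to 16.1 CPM. The defining principal cell marker is therefore close to 0 in these cells. The proximal tubule marker Lrp2 was at 161 to 200.9 CPM in control and 155 to 172 CPM in NaCl, whereas Cubn, of the same list, did not exceed 2.90 CPM. The 2 measured leukocyte markers of 3 listed summed to 5.97 to 7.11 CPM in control and 14.9 to 15.6 CPM in NaCl. Of the pair, Ptprc was higher in every NaCl library (3.59 to 4.42 CPM in control, 13.1 to 14.3 in NaCl), whereas Cd68 was not (1.93 to 2.69 and 1.33 to 2.06 CPM). The part of these differences in the NaCl results was not tested. In bulk RNA, fewer cells in S phase and less RNA per cell cannot be told apart.

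In the comparison of the groups alone, without the library number, most of the 38 genes were not called. The GINS subunit gene Gins3 was higher with NaCl, Mcm10 and the cyclin gene Ccne2 were lower, and the other 35 genes were not called. This makes 3 genes, or 7.89% of the 38, beside 34.1% of all tested genes called in either direction (16.9% higher and 17.2% lower) by edgeR's quasi-likelihood test with Benjamini-Hochberg adjustment under 0.05. The median log2 fold change of the 38 genes was -0.022, beside 0.0029 over all tested genes, with 17 values above 0 and 21 below. The sign of that median turned without control replicate 1 (0.038, 23 values above 0) and without NaCl replicate 8 (0.017, 22 above 0), and the median was -0.066 without control replicate 4 (12 above 0). The linear fold lay between 0.83 and 1.31. Control and NaCl libraries did not overlap for 2 genes, or 5.26%, beside 33.4% of all tested genes. For each of the 35 genes not called, the 95% interval of the fold change stayed within 1.5-fold in either direction. Its bounds reached from -0.42 (Ung) to 0.32 (Mcm2) on the log2 scale. A missed threshold does not show that the groups are alike. These intervals hold for the fit without the library number; with a straight line over libraries 1 to 8 the interval of Mcm2 was 0.41 to 0.66 and that of Ccne1 reached 0.76, past 1.5-fold.

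Gins3 (ENSMUSG00000031669, chr8:95633453-95645060, plus strand, GRCm38) encodes a subunit of the GINS complex. In control, replicates 1 to 4 in order, its CPM was 17.0, 13.0, 15.2 and 13.7, and with NaCl, replicates 5 to 8 in order, it was 19.0, 20.7, 18.2 and 19.0. Every NaCl library was above every control library. The mean was 14.7 ± 1.75 CPM in control and 19.2 ± 1.08 CPM in NaCl (SD, n = 4 each). On the log2 scale NaCl exceeded control by 0.38 (SE 0.084, adjusted p = 0.0019, edgeR), and by 0.57 (SE 0.15, adjusted p = 0.0054) with a straight line over libraries 1 to 8 in the fit. Without the library number, the other 3 GINS subunit genes gave log2 fold changes of 0.03 (Gins1, 95% interval -0.16 to 0.21), -0.06 (Gins2, -0.20 to 0.08) and 0.092 (Gins4, -0.0070 to 0.19), and none was called (edgeR). In the straight-line fit Gins1 (0.44) and Gins4 (0.26) were called higher (adjusted p = 0.020 for each, edgeR). Gins2 was not called in that fit (0.22, adjusted p = 0.060, edgeR). Gins4 is not one of the 38 and was named after its values were seen.

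Mcm10 (ENSMUSG00000026669, chr2:4989714-5012791, minus strand) encodes a factor that helps to activate the loaded helicase. Its CPM was 41.0, 39.3, 36.9 and 33.9 in control and 32.0, 32.2, 31.3 and 29.8 in NaCl. All NaCl libraries were below all control libraries, and the lowest control value, replicate 4, lay closest to them. The control mean was 37.8 ± 3.11 CPM and the NaCl mean 31.3 ± 1.12 CPM (SD, n = 4 each). The log2 difference was -0.27 (SE 0.061, adjusted p = 0.0024, edgeR). With a straight line over libraries 1 to 8 in the fit it was -0.0056 (95% interval -0.21 to 0.20, adjusted p = 0.98, edgeR), so the call was lost. With the library number centred inside each group it was -0.27 (adjusted p = 3.4e-05, edgeR), so the call was kept.

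Ccne2 (ENSMUSG00000028212, chr4:11191351-11204779, plus strand) encodes cyclin E2, a partner of the kinase that starts S phase. Its CPM was 44.6, 47.9, 42.3 and 39.9 in control and 40.8, 37.4, 37.7 and 37.5 in NaCl. The groups overlapped through control replicate 4 and NaCl replicate 5. The log2 fold change was -0.19 (SE 0.058, adjusted p = 0.018, edgeR), with means of 43.7 ± 3.41 and 38.3 ± 1.61 CPM (SD, n = 4 each). The call was lost without control replicate 2 (adjusted p = 0.074), NaCl replicate 6 (0.054) or NaCl replicate 7 (0.050), so it rests on single libraries. It was also lost with the straight line in the fit (0.017, 95% interval -0.18 to 0.22, adjusted p = 0.93, edgeR). With the library number centred inside each group the call was kept (-0.19, adjusted p = 0.0017, edgeR). Exons of Ints8 on the opposite strand cover 17.4% of the exon bases of Ccne2, and the strandedness of the counting is not given in the sources used here. Its relative Ccne1 was at 21.6, 17.3, 19.0 and 16.6 CPM in control and 20.7, 19.7, 17.4 and 15.3 CPM in NaCl. The Ccne1 groups overlapped, and its log2 fold change was -0.03 (95% interval -0.24 to 0.19, adjusted p = 0.87, edgeR).

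**Figure D1:**
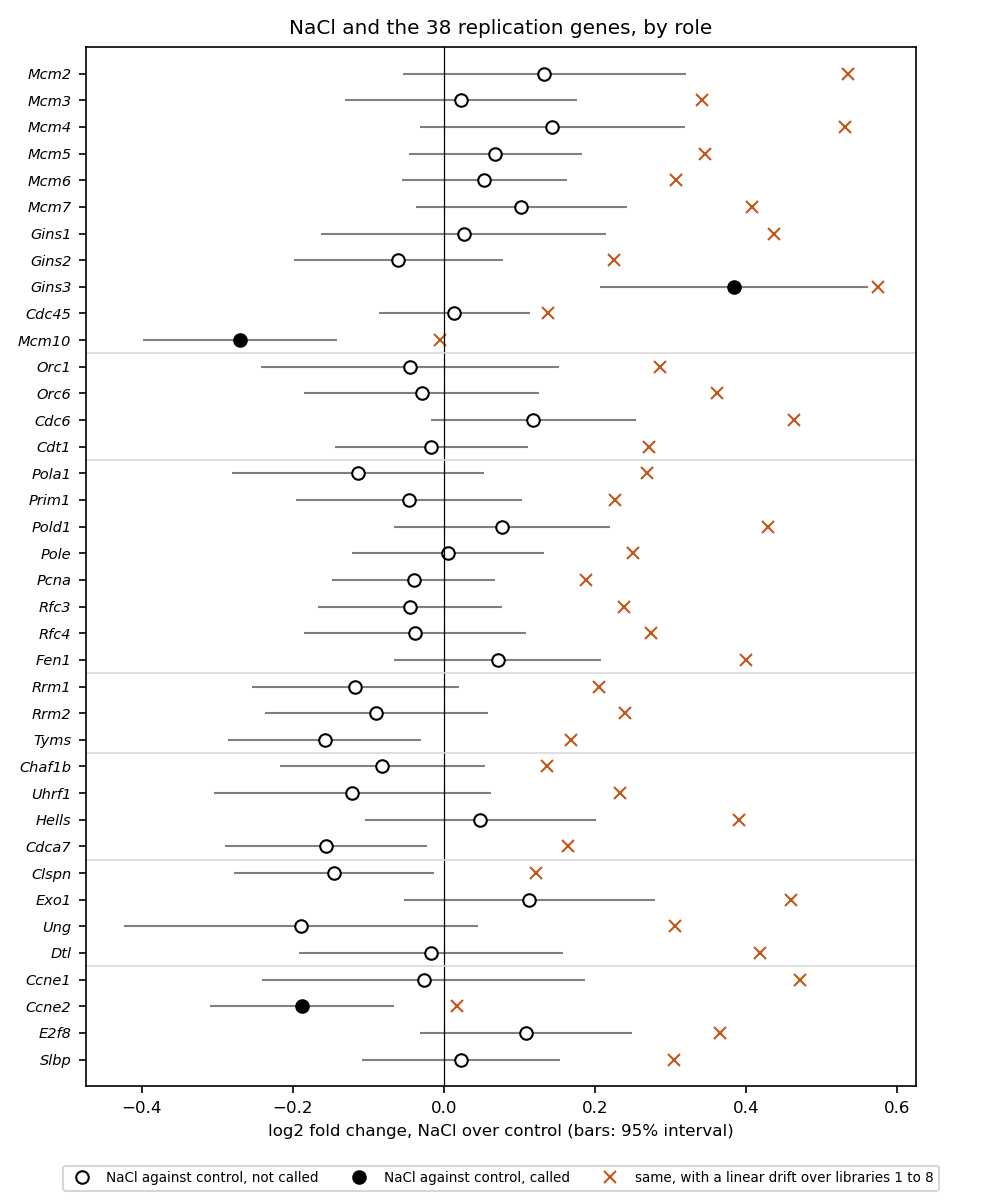
Circles give the log2 fold change (NaCl over control) of each of the 38 genes with its 95% interval from the edgeR fit, filled where called, in order of role with grey lines between roles; crosses give the value with a straight line over libraries 1 to 8 in the fit. Gins3 lies to the right of 0 at 0.38, Mcm10 and Ccne2 lie to the left at -0.27 and -0.19, the other intervals stay within 1.5-fold, and 37 of 38 crosses lie to the right of 0.

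Many more of the 38 genes were called along the library number than between the groups. The genes were chosen with earlier results of these data known, and the number was examined because the set might follow it. The counts below are therefore a description and not an independent test. With 1 slope shared by both groups, 32 of 38 genes (84.2%) fell with the number and 0 rose, beside 6.22% of all tested genes that fell and 6.95% that rose (edgeR's quasi-likelihood test with Benjamini-Hochberg adjustment). At an unadjusted p under 0.05, 36 of the 38 passed, all of them falling, beside 25.8% of all tested genes in either direction. All 38 slopes were below 0, beside 51.1% of all tested genes. The median slope was -0.079 log2 per library number, a loss of 5.3% per step, and the slopes ran from -0.12 (Ccne1) to -0.03 (Cdc45). DESeq2 and limma-voom also called 32 falling and 0 rising, beside 5.75% and 6.31% of all tested genes falling. Scaling by library totals alone called 33 of the 38 falling, beside 9.46% of all tested genes. That scaling moved the share of falling genes among all calls of the table from 47.2% to 64.5%.

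The summed level of the 38 genes was 4160, 3864, 3501 and 3389 CPM in control, and 3888, 3848, 3726 and 3504 CPM in NaCl, each in the order of the library number. From the first library to the last, the sum fell by 18.6% in control and fell by 9.88% in NaCl. Total depth was highest in the first control library and lowest in the first NaCl library, and its part in these sums was not tested. The first 2 control libraries exceeded the last 2 for 36 genes, and the first 2 NaCl libraries exceeded the last 2 for 26 genes, beside 24.9% and 20.6% of all tested genes.

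**Figure D2:**
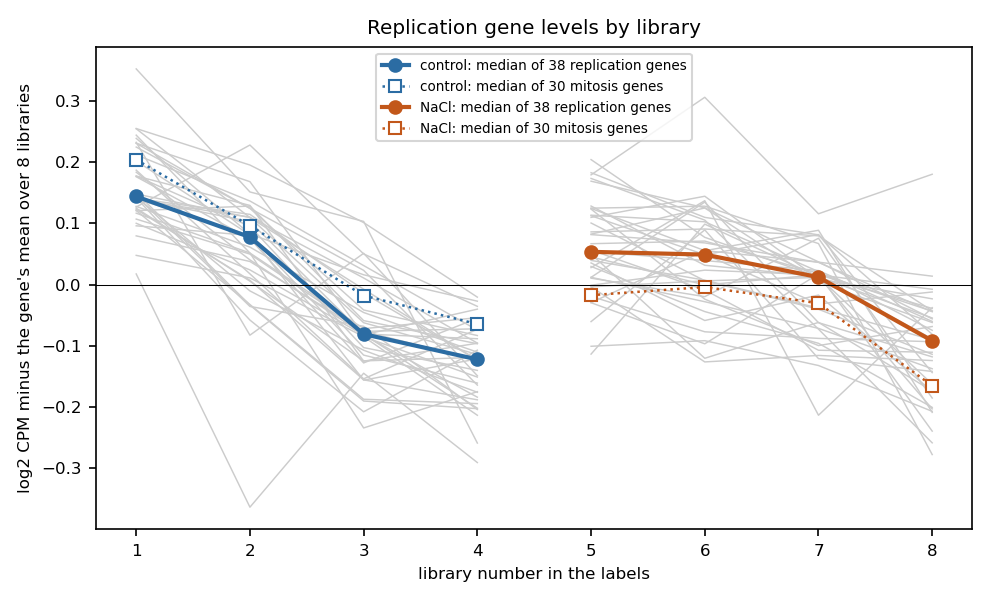
Log2 CPM minus the gene's own mean against the library number: grey lines are the 38 genes, filled points their median per library, and open squares with dotted lines the median of 30 mitosis genes. The median of the 38 drops from 0.14 in control replicate 1 to -0.12 in control replicate 4, stands at 0.054 in NaCl replicate 5 and drops to -0.092 in NaCl replicate 8.

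The count moved with single libraries. Without control replicate 1, 15 genes fell and 0 rose, beside 2.32% of all tested genes falling, and all 38 slopes stayed below 0 with a median of -0.065. Without both control replicate 1 and NaCl replicate 5, a choice made after seeing their totals, 17 genes fell, beside 1.95% of all tested genes. Without control replicate 4 the count was 22 (beside 3.12%), and without NaCl replicate 8 it was 25 (beside 3.29%). All 38 slopes stayed below 0 in these fits too. The median was -0.085 without both libraries, -0.072 without control replicate 4 and -0.083 without NaCl replicate 8. In each of these fits the share of all tested genes called falling was lower than the 6.22% with all libraries. Mcm2, Mcm4, Rrm1, Dtl and Hells kept an adjusted p under 0.01 without control replicate 1 (edgeR, 7.7e-04, 9.3e-04, 0.0082, 0.0070 and 0.0049), while Pcna, Mcm6, Ccne1, Slbp and Mcm10 lost their call (0.10, 0.066, 0.064, 0.096 and 0.24).

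Among the helicase genes, 9 of 11 fell along the library number. The share of all tested genes falling in this fit, 6.22%, stands beside each count by role below. Mcm2, Mcm3, Mcm4, Mcm5, Mcm6 and Mcm7 encode the ring that encircles DNA, and all 6 were among the 9. Mcm2 was at 265, 233, 209 and 207 CPM in control and 268, 260.1, 245 and 229 CPM in NaCl. The first library of each group was the highest and the last the lowest, and the groups overlapped. Its slope was -0.099 per number (SE 0.013, adjusted p = 2.6e-06, edgeR), and its log2 fold change with NaCl was 0.13 (95% interval -0.05 to 0.32, adjusted p = 0.26).

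Mcm4 was at 216, 194, 174 and 173 CPM in control and 225, 214, 209.9 and 188 CPM in NaCl. Its values also dropped step by step inside each group, and NaCl replicates 6 and 7 lay between control replicates 1 and 2. Its slope was -0.096 (SE 0.014, adjusted p = 5.1e-06, edgeR). Mcm3 was at 251, 227, 209 and 192 CPM in control and 229, 228, 216 and 219 CPM in NaCl. The drop was steep in control and shallow in NaCl, with slopes of -0.13 and -0.028 inside the groups and a shared slope of -0.078 (adjusted p = 0.0010, edgeR).

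Mcm5 was at 271, 257, 239 and 222 CPM in control and 268, 265, 259 and 245 CPM in NaCl. Mcm6 was at 276, 254, 232 and 233 CPM in control and 265, 266, 256 and 246 CPM in NaCl. Mcm7 was at 301, 278, 248 and 243 CPM in control and 294, 295, 293 and 269 CPM in NaCl. For all 3 genes control replicate 1 was the highest of the 8 libraries and control replicates 3 and 4 were the lowest 2. Slopes were -0.069, -0.063 and -0.075, and log2 fold changes with NaCl were 0.07, 0.05 and 0.10, none of them called (adjusted p = 0.36, 0.46 and 0.25, edgeR). Gins3 and Cdc45, which binds the ring together with GINS, were the helicase genes whose slope was not called (-0.047 and -0.030, adjusted p = 0.41 and 0.34, edgeR).

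Of the 4 licensing genes, 3 fell. Orc6, a subunit of the origin recognition complex, was at 64.7, 59.5, 53.0 and 50.6 CPM in control and 60.3, 56.5, 54.7 and 52.0 CPM in NaCl. The values dropped at each step of both groups and the ranges overlapped, with a slope of -0.096 (SE 0.018, adjusted p = 3.2e-04, edgeR). Cdc6 (-0.086) and Cdt1 (-0.071) also fell, whereas Orc1 had a slope of -0.082 with an adjusted p of 0.13 (edgeR).

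All 8 genes of the polymerases, the clamp, the clamp loader and the flap nuclease Fen1 fell, with slopes between -0.094 and -0.056. Pola1 encodes the catalytic subunit of polymerase alpha, which starts each new strand. It was at 95.03, 88.3, 82.3 and 72.2 CPM in control and 83.0, 77.7, 80.0 and 71.7 CPM in NaCl. The first control library was the highest of the 8 and both last libraries the lowest, with a slope of -0.094 (SE 0.017, adjusted p = 2.3e-04, edgeR). Pold1, the catalytic subunit of polymerase delta, was at 93.9, 82.8, 81.0 and 73.7 CPM in control and 91.9, 91.2, 86.2 and 80.6 CPM in NaCl. It dropped at each step in both groups, with a slope of -0.087 (adjusted p = 2.6e-04, edgeR).

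Pcna (ENSMUSG00000027342) encodes the sliding clamp and is often used as a marker of S phase. It was at 316, 308, 271 and 269.7 CPM in control and 286, 288, 289 and 269.6 CPM in NaCl. The first 2 control libraries were the highest and the last libraries of both groups the lowest, so the NaCl range lay inside the control range except for its lowest value. The slope was -0.056 (SE 0.014, adjusted p = 0.0053, edgeR). The means of 291 ± 24.2 and 283 ± 9.11 CPM (SD, n = 4 each) gave a log2 fold change of -0.04 (95% interval -0.15 to 0.07, adjusted p = 0.58, edgeR). The pseudogene Pcna-ps2 shares 51.4% of the bases of the longest Pcna transcript, so reads of the pair could have been divided in either way by the counting. By the same measure Uhrf1 shares 44.3% with Gm5648.

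The 3 nucleotide supply genes all fell. Rrm1 and Rrm2 encode the large and small subunits of ribonucleotide reductase, which makes deoxynucleotides. Rrm1 was at 258, 241, 214 and 208 CPM in control and 222, 216, 210.0 and 200.6 CPM in NaCl, and Rrm2 at 171, 149.7, 137 and 139 CPM in control and 150.2, 144, 134 and 134 CPM in NaCl. For both genes the first control library was the highest and the groups overlapped. Slopes were -0.080 for Rrm1 and -0.082 for Rrm2 (adjusted p = 7.3e-05 and 2.1e-04, edgeR). Tyms, which makes thymidylate, had a slope of -0.081 and a log2 fold change with NaCl of -0.16 that was not called (95% interval -0.29 to -0.03, adjusted p = 0.054, edgeR).

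Of the 4 chromatin genes, 3 fell. Hells, a chromatin remodelling enzyme needed for DNA methylation, was at 117, 116, 101 and 97.9 CPM in control and 118, 113, 116 and 99.0 CPM in NaCl. The last 2 control libraries and the last NaCl library were the lowest, with a slope of -0.085 (adjusted p = 3.4e-04, edgeR). Uhrf1, which brings the maintenance methyltransferase to new DNA, and Cdca7, a partner of Hells, fell with slopes of -0.087 and -0.079. Chaf1b, a subunit of the complex that places histones on new DNA, had a slope of -0.054 with an adjusted p of 0.12 (edgeR).

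All 4 checkpoint and repair genes fell. Dtl, which directs the destruction of Cdt1, was at 48.7, 46.0, 40.1 and 39.1 CPM in control and 47.1, 44.0, 43.5 and 37.4 CPM in NaCl. It dropped at each step of both groups, the ranges overlapped, and the slope was -0.11 (SE 0.020, adjusted p = 3.0e-04, edgeR). Ung, which removes uracil from DNA, went from 28.8 CPM in control replicate 1 to 18.9 CPM in control replicate 4, the largest relative drop of the 38 in control (34.6%). Exo1, an exonuclease, and Clspn, a checkpoint adaptor, had slopes of -0.085 and -0.066.

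Of the 4 genes for entry control and histone mRNA, Ccne1 and Slbp fell. Ccne1 had the steepest slope of all (-0.12, SE 0.031, adjusted p = 0.0049, edgeR). Slbp, which binds the end of replication-dependent histone mRNA, was at 112, 108, 91.5 and 93.7 CPM in control and 106, 105, 104 and 97.8 CPM in NaCl. The last 2 control libraries were the lowest, and the slope was -0.070 (adjusted p = 0.0039, edgeR). Ccne2 (-0.051) and the repressor gene E2f8 (-0.063) were not called (adjusted p = 0.12 and 0.073, edgeR).

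**Figure D3:**
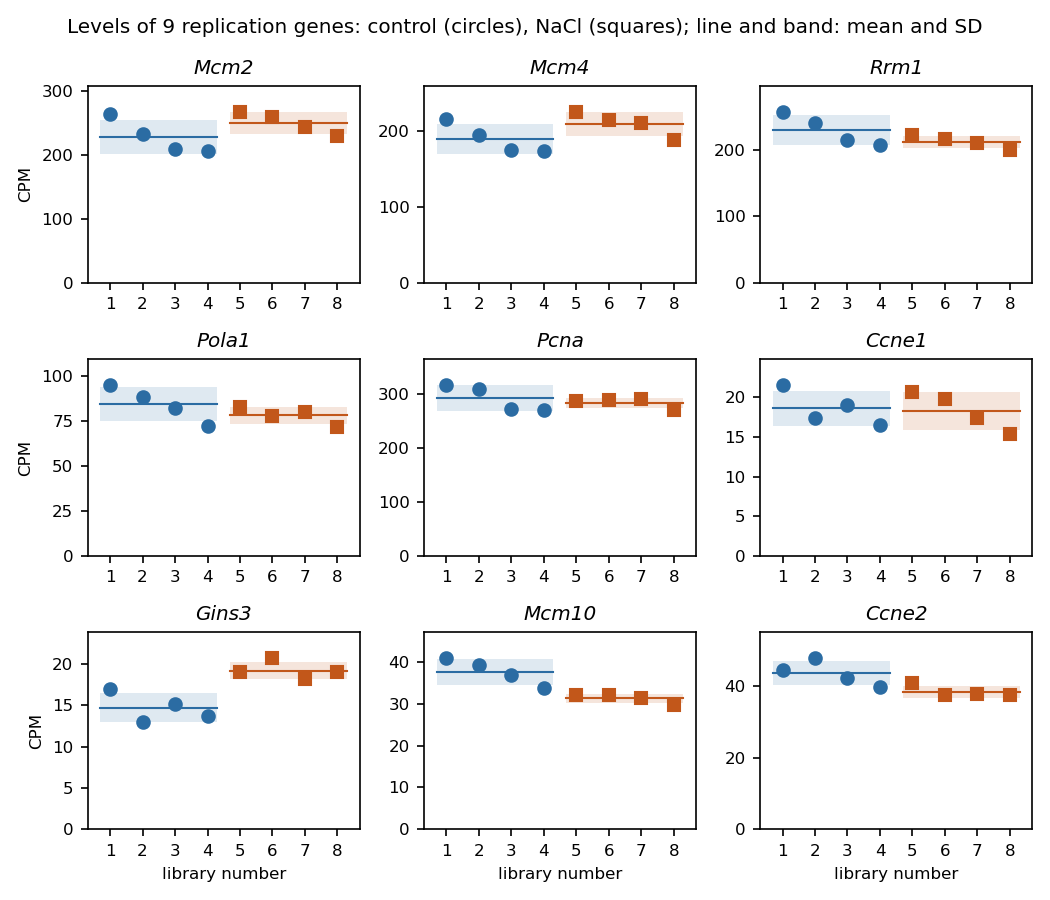
CPM of 9 genes against the library number, with circles for control and squares for NaCl and with the group mean (line) and SD (band, n = 4). Mcm2, Mcm4 and Rrm1 drop at each step of both groups, Gins3 and Mcm10 separate the groups, and Ccne2 does not separate them fully.

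Inside the control group alone, 28 of 38 slopes were called falling, beside 4.42% of all tested genes, and inside the NaCl group 4 were (Mcm2, Mcm4, Dtl and Ccne1), beside 1.06%. Median slopes were -0.097 and -0.050 log2 per library number, and all 38 were below 0 in each group, beside 7019 of the 14024 tested genes in control and 7247 in NaCl. Without control replicate 1, 1 control slope was called, beside 0.253% of all tested genes, while the median was -0.10 and 37 of 38 slopes were below 0. Without NaCl replicate 8, the 4 NaCl calls were lost, beside 0.183% of all tested genes falling, and 32 of 38 slopes were below 0. Without NaCl replicate 5, 1 was called, beside 0.219%, and 37 were below 0. From the first library to the last, the median change was -17.3% in control (range -34.6% to -10.0%) and -9.18% in NaCl (range -25.9% to 0.069%). A drop at each of the 3 steps occurred in 24 genes in control (background 9.16%), in 15 in NaCl (7.09%) and in 10 in both (1.67%). Those 10 were Mcm2, Mcm4, Mcm5, Orc6, Cdc6, Pold1, Rfc3, Rrm1, Tyms and Dtl.

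The slope was shallower in NaCl than in control for 36 of the 38 genes, beside 51.0% of all tested genes, with Gins1 and Ccne1 as the exceptions. The median difference was 0.052 log2 per library number. With control replicate 1 and NaCl replicate 5 both left out, the NaCl slope was above the control slope for 27 genes, with a median of 0.028. It was above for 31 without control replicate 1 and for 32 without NaCl replicate 5. The test of this difference called 0 of 38, beside 0.0927% of all tested genes (edgeR's quasi-likelihood interaction test with Benjamini-Hochberg adjustment). At an unadjusted p under 0.05, 11 of the 38 passed, beside 7.76% of all tested genes, and limma-voom called 0. DESeq2 called Mcm3 (adjusted p = 0.014, beside 0.087 in edgeR). Of all tested genes, DESeq2 called 0.121% with a higher and 0.0856% with a lower slope in NaCl. The slopes are therefore not shown to differ between the groups for any of the 38 genes by the edgeR test.

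**Figure D4:**
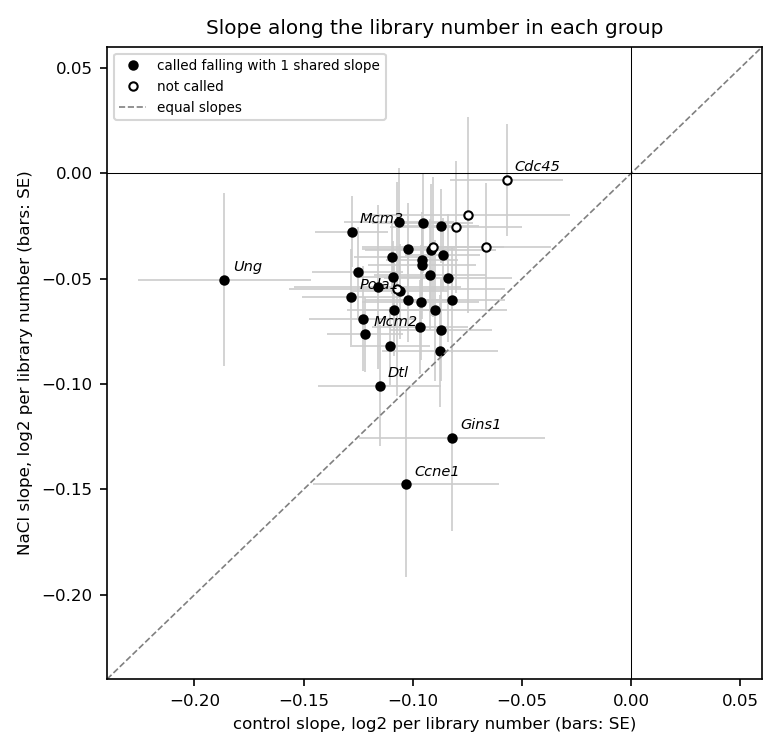
Slope in log2 CPM per library number inside the control group (horizontal axis) against that inside the NaCl group (vertical axis) for the 38 genes, with SE bars, and filled points for genes called falling with 1 shared slope. All points lie below 0 on both axes, and 36 of 38 lie above the dashed line of equal slopes.

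The level did not continue downward from library 4 to library 5. NaCl replicate 5 was above control replicate 4 for 36 of the 38 genes, beside 51.8% of all tested genes, by a median log2 difference of 0.18. Paired by place inside the group, the median log2 difference of NaCl over control was -0.10 between the first libraries, where 6 genes were higher in NaCl. It was -0.019, 0.090 and 0.018 between the libraries at places 2, 3 and 4, with 16, 25 and 20 genes higher in NaCl. The labels do not tie libraries of the same place to each other, so these values are a description.

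The NaCl result depended on how the number entered the fit. With the number centred inside each group, 6 genes were higher with NaCl (Mcm2, Mcm4, Mcm5, Mcm7, Gins3 and Cdc6) and 10 were lower (Mcm10, Pola1, Rrm1, Rrm2, Tyms, Uhrf1, Cdca7, Clspn, Ung and Ccne2). These 16 genes, 42.1% of the 38, stand beside 43.0% of all tested genes called by that fit, so the share is near the background. Single libraries moved this balance: 12 were higher and 3 lower without control replicate 1, 9 and 6 without NaCl replicate 8, and 3 and 9 without control replicate 3. The shares of all tested genes in these fits were 18.8%, 18.6% and 19.3% higher and 20%, 20.1% and 20.6% lower. With the number as 1 straight line from 1 to 8, 25 were higher and 0 lower, beside 24.1% of all tested genes called (11.5% higher and 12.6% lower). The median log2 difference was then 0.30, and Mcm10 was the 1 gene below 0 (-0.0056). Leaving out single libraries gave 15 (without control replicate 4) to 29 (without NaCl replicate 5) genes higher in that fit, beside 7.38% and 8.17% of all tested genes. Both fits describe the same 8 values: the second difference equals the first minus 4 times the slope, since the mean library numbers of the groups lie 4 apart. An effect of NaCl on top of a continued drift and a level that starts again at library 5 cannot be told apart in this design.

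Levels were compared between genes only as CPM per kb of exon. Pcna was highest, at 121 ± 10.1 in control and 118 ± 3.80 in NaCl (SD, n = 4 each). The control means of Mcm5 (61.9 ± 5.30), Mcm7 (60.5 ± 6.16), Mcm3 (58.5 ± 6.73), Rrm2 (53.9 ± 5.59), Mcm6 (53.3 ± 4.45) and Mcm4 (52.7 ± 5.58) followed, and neighbours among these 6 did not differ beyond their spread. Mcm2, a subunit of the same ring, was lower, at 32.8 ± 3.86. The lowest levels were those of Exo1 (2.61 ± 0.309), Dtl (3.17 ± 0.338) and Orc1 (3.97 ± 0.424) CPM per kb.

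**Figure D5:**
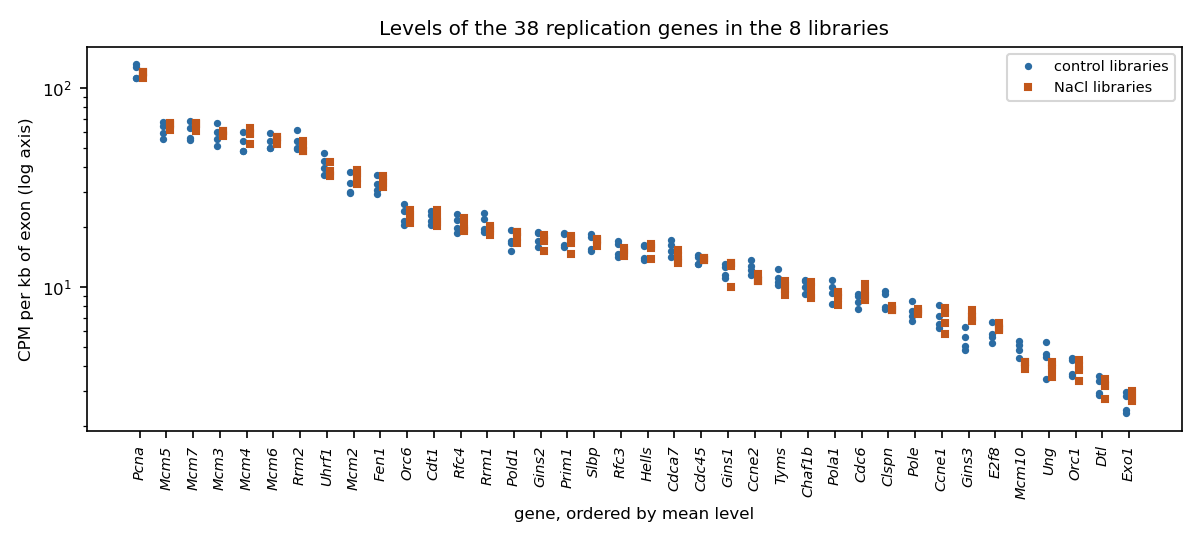
CPM per kb of exon of the 38 genes in each library on a log axis, with circles for the 4 control and squares for the 4 NaCl libraries, ordered by mean level. Pcna is highest, 5 of the Mcm ring genes and Rrm2 follow, and Exo1 is lowest.

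The fall was also seen in genes without sequence shared with other genes. Of the 38 genes, 20 had no exon overlap with another gene and no stretch of at least 75 bases at 98% identity in another gene's transcript. Of these 20, 18 fell along the library number, beside 6.22% of all tested genes, with a median slope of -0.079. With NaCl, Gins3 was higher and Mcm10 was lower. The overlap was largest for Fen1, a flap nuclease, where opposite-strand genes cover 84.2% of its exon bases, and for Gins2 (67.3%, Gse1). Values of these genes are uncertain where the counting did not use strand. The 38 genes had a median exon length of 4.18 kb beside 4.24 kb over tested genes, and a median GC content of 48.1% beside 49.7%.

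Promoters of the 38 genes were read from RefSeq (GRCm38.p6). A promoter entry was matched for 32 of the 38 genes, and the 250 bases before each transcript start were searched on both strands. The words TTTCCCGC, TTTCGCGC, TTTGCCGC and TTTGGCGC, which are forms of the E2F binding motif, occurred in 12 of 32 genes (37.5%), beside 2.16% of 27025 genes with a promoter entry and 3.85% of 10659 tested genes. The word CCAAT occurred in 21 of 32 (65.6%, beside 40.8% of tested genes) and TTTGAA, a form of the CHR element of mitotic genes, in 5 of 32 (15.6%, beside 13.0%). The E2F-type words also occurred in 10 of 57 other replication genes of the list below (17.5%) and in 2 of 26 mitosis genes (7.69%). Of the 30 mitosis genes, 24 fell along the library number, beside 6.22% of all tested genes. The 38 genes were chosen by function, with earlier results of these data known, so these shares do not test a link to the fall. No such link was tested. A match describes letters in the window and is not a shown binding site.

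The stretches below are from the 6 genes with the smallest p along the library number whose window holds such an E2F-type word outside annotated exons. They are shown 5′ to 3′ on the strand of the gene, 90 bases each, and capitals mark the words in either orientation. The Pola1 stretch is chrX:93632245-93632334 (minus strand), Dtl is chr1:191575545-191575634 (minus), Mcm5 is chr8:75109317-75109406 (plus), Mcm6 is chr1:128359745-128359834 (minus), Cdc6 is chr11:98907982-98908071 (plus) and Cdca7 is chr2:72476069-72476158 (plus).
Pola1: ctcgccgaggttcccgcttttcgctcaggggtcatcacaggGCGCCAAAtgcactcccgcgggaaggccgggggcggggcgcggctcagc
Dtl: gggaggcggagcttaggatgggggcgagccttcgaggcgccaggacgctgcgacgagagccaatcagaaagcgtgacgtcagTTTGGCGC
Mcm5: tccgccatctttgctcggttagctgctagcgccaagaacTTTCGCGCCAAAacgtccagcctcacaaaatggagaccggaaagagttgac
Mcm6: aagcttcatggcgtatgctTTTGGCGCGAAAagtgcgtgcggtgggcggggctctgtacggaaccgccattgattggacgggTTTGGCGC
Cdc6: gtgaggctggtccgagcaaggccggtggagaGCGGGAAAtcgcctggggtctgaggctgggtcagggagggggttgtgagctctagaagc
Cdca7: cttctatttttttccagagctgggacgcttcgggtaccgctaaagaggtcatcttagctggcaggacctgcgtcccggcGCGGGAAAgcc
In Mcm5 and in the first block of Mcm6, words on opposite strands overlap and share bases. The Cdc6 stretch lies inside the annotated span of the gene. Pcna, Mcm2 and Rrm1 fell too and held none of these 4 words in the window, which says only that these letters are not there.

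Another 70 genes of the replication pathway, listed by function, were all in the table. With NaCl, 6 were higher (Mcm8, Rpa3, Tk1, E2f1, E2f2 and E2f7) and 5 lower (Prim2, Pold2, Pold4, Dscc1 and Rbl1), which is 15.7% of the list beside 34.1% of all tested genes. Their median log2 fold change was -0.029. With the library number centred in each group 13 were higher and 10 lower, and with the straight line over libraries 1 to 8, 31 were higher and 1 lower (median 0.23), beside the shares of all tested genes given above for these fits. The transcription factor gene E2f2 was at 15.4, 13.8, 12.3 and 12.2 CPM in control and 16.3, 15.8, 16.8 and 16.6 CPM in NaCl. Its groups did not overlap, with a log2 difference of 0.28 (SE 0.082, adjusted p = 0.013, edgeR). The clamp loader gene Dscc1 was at 20.9, 23.5, 19.3 and 21.7 CPM in control and 17.2, 19.2, 17.0 and 15.2 CPM in NaCl. All its NaCl libraries were below all control libraries, with a log2 difference of -0.32 (SE 0.080, adjusted p = 0.0056, edgeR). The polymerase delta subunit gene Pold4 and the primase subunit gene Prim2 had log2 fold changes of -0.28 and -0.26 (adjusted p = 0.0033 and 0.0010, edgeR).

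Along the library number, 33 of these 70 genes (47.1%) fell and 0 rose, beside 6.22% falling among all tested genes, with a median slope of -0.059. At an unadjusted p under 0.05, 47 of the 70 passed, beside 25.8% of all tested genes. The smallest p values belonged to Nasp, a histone chaperone (-0.11), Rpa1, which coats single-stranded DNA (-0.092), Ccna2, an S phase and mitotic cyclin (-0.10), and Dnmt1, the maintenance DNA methyltransferase (-0.082). Rpa1 was at 373, 339, 303 and 292 CPM in control and 356, 350.1, 337 and 313 CPM in NaCl. It dropped at each step of both groups, as Mcm2 did, and the groups overlapped (adjusted p = 6.2e-06 along the number, edgeR).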

How the data were processed

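The submitters' processing notes name Trim Galore 0.6.7, STAR, DESeq2 1.34.0 and the mm10 build, without role or order. The counting program, annotation and strandedness are not given in the sources used here. The main input was the deposited table of whole-number raw counts per gene, made by the authors. A second table, deposited by the authors, holds a normalized signal. Each of its values is the raw count over 1 factor per library (0.864 to 1.145). It was used in 1 alternative, with limma on log2(value + 1).

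The tests used edgeR 4.0.16 under R 4.3.3. A filter by group (filterByExpr, minimum count 10) kept 14024 of 15288 genes and removed 1264. It was followed by TMM scaling, a robust quasi-likelihood fit and two-sided tests with Benjamini-Hochberg adjustment over all tested genes, called under 0.05. Models held the group alone, the group with the library number centred inside each group, or 1 slope per group. Totals of 35286796 to 47565623 counts per library left at least 482 counts for each of the 38 genes in each library. Alternatives used DESeq2 1.42.0, limma-voom (limma 3.58.1), other scalings, filters and thresholds, the number as a covariate, and each library left out. The fits without control replicate 1 and NaCl replicate 5 together, and those without single libraries for slopes inside a group or for the number in the NaCl fit, were added after seeing the data. Scripts were tested on simulated data.

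Shared sequence was found with blastn 2.17.0, and exon overlaps come from an annotation of GRCm38. The 38 genes and the other lists were chosen with earlier results of these data known. Described in full were Pcna, Mcm2 to Mcm7, Ccne1, Ccne2, Slbp, the genes called with NaCl and the 10 with the smallest p along the number, and of the other replication genes the 4 with the highest absolute fold change and the 4 with the smallest p along the number. Of 29 cell type markers, 21 were measured and the other 8 were not analysed here.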

Additional observations from a re-analysis of the deposited data

Results flagged for a closer look

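Inside a group of 4 libraries, the lowest or highest value was compared with the nearest of the others by Dixon's criterion (the gap over the range of the group, at its 95% critical value). Chance gives this in about 1 in 20 groups, which makes 3.9 of the 78 groups examined, and 6 were found. NaCl replicate 8 was far below the other NaCl libraries for 3 genes: Mcm7 (268.6 CPM, the others 292.5 to 294.8), Gins1 (15.15 CPM, the others 19.24 to 20.08) and Pcna (269.6 CPM, the others 286 to 289.1). NaCl replicate 5 was far above the others for Ccne2 (40.76 CPM, the others 37.43 to 37.71). Among library totals, control replicate 1 (47565623 counts, the others 41768063 to 42731803) and NaCl replicate 5 (35286796 counts, the others 41366039 to 42394487) stood apart. The number of genes falling along the library number was 15 without control replicate 1, 32 without NaCl replicate 5 and 25 without NaCl replicate 8. The shares of all tested genes falling in these fits were 2.32%, 6.27% and 3.29%.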

How the results depend on the processing

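No paired analysis was possible because the control libraries carry the numbers 1 to 4 and the NaCl libraries 5 to 8, so the groups share no replicate number. The count of genes falling along the library number (32) was 4 in the NaCl libraries alone, beside 1.06% of all tested genes. It was 17 without control replicate 1 and NaCl replicate 5 (beside 1.95%), and ran from 15 to 32 when each library was left out. The count rising was 0 in each fit. The count higher with NaCl (1) was 25 with a straight line over libraries 1 to 8, 6 with the number centred in each group, 4 without control replicate 1 and NaCl replicate 5 (beside 14.6% of all tested genes), and from 1 to 6 when each library was left out (6 without control replicate 1, beside 15.5%). The count lower with NaCl (2) was 0 with the straight line (beside 12.6%) and 10 with the centred number (beside 22.0%). It was 1 at an adjusted p under 0.01, and from 1 to 8 when each library was left out (8 without control replicate 4, beside 16.7%). The count of genes with different slopes (0) was 1 in DESeq2, beside 0.121% of all tested genes with a higher and 0.0856% with a lower slope in NaCl. With the straight line, the log2 fold change turned from negative to positive for 20 of the 38 genes. Of the 19 genes described in full these were Ccne1 (0.47), Ccne2 (0.017), Dtl (0.42), Orc6 (0.36), Pcna (0.19), Pola1 (0.27), Rrm1 (0.21) and Rrm2 (0.24), since 4 slopes are subtracted. When each library was left out, it ran across 0 for Ccne1 (-0.089 to 0.051), Dtl (-0.068 to 0.042), Orc6 (-0.084 to 0.036, and 1.4e-05 without control replicate 1 and NaCl replicate 5), Mcm3 (-0.039 to 0.091) and Slbp (-0.026 to 0.074). Of 361 refits of the fold changes of 19 genes, 311 kept direction and call and 20 reversed, and of 342 refits of their slopes, 307 kept both and 0 reversed; the cause was not tested. The lowest count of the 38 genes in any library was 482.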

Other observations

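A list of 30 mitosis genes (spindle, kinetochore and chromosome separation) was read beside the 38 replication genes, since its genes act after replication in the same cell cycle. With NaCl, 7 of 30 (23.3%) were lower and 0 higher by edgeR's quasi-likelihood test with Benjamini-Hochberg adjustment, beside 17.2% of all tested genes lower, and 27 values were below 0 with a median log2 fold change of -0.094. With the library number centred in each group, 16 were lower and 0 higher (beside 22.0% of all tested genes lower). The direction turned with a straight line over libraries 1 to 8 in the fit: 13 were higher and 0 lower, and the median was 0.16 (beside 11.5% of all tested genes higher). Along the library number, 24 of 30 (80%) fell and 0 rose, beside 6.22% of all tested genes falling, and the median slope was -0.071. NaCl replicate 5 was above control replicate 4 for 17 of 30 mitosis genes by a median log2 difference of 0.025, where the 38 replication genes gave 36 of 38 and 0.18. Paired by place inside the group, the median log2 difference of NaCl over control in the mitosis genes was -0.20, -0.095, 0.0038 and -0.086. No test compared the lists with each other.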
